A study of Mus musculus with 16 samples.

Results

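Retinal gene expression was compared between mice given VEGF-A and mice given VEGF Trap, 5 arrays against 3. These 8 of the series' 16 arrays were taken by their labels, and both groups lay on the same 2 array slides, called slide 3 and slide 4 here. VEGF-A 1 and 2 and VEGF Trap 1 and 2 were on slide 3, and VEGF-A 3, 4 and 5 and VEGF Trap 3 were on slide 4. All samples were whole retinas of C57Bl6 pups collected 24 h after treatment. Per the labels, VEGF-A was injected into the vitreous at 8 days of age at a dose of 1 µg. For VEGF Trap the labels give neither a dose nor the age at injection. The remaining 8 arrays held retinas after Dll4-Fc or after the control protein hFc, both injected at 4 µg, each group on a slide of its own. The hFc levels are set beside the named genes as values from another slide, without a test.

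VEGF-A is the main growth factor of blood vessels. It binds the endothelial receptors Kdr and Flt1 and drives vessel sprouting, endothelial division and permeability, and in the growing mouse retina it is released by glia and neurons of poorly oxygenated tissue. VEGF Trap is a soluble decoy built from the ligand-binding parts of VEGF receptors and an Fc tail, and it takes VEGF-A out of reach of the receptors. The pair therefore sets an excess of the factor against its removal. Cells short of oxygen stabilise HIF transcription factors, which bind a short DNA core, ACGTG, and switch on glycolysis genes and Vegfa itself.

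Promoters of 6 genes of the results below are printed first. Of these, 5 are from gene lists whose members moved together, and that of Slc38a5 is printed as one of the largest differences. The 5 were chosen after the values were seen, and each of the 6 holds a motif marked here. Looked up but not printed were Egln3 (1 match), Kif11 (2 matches) and Esm1, the largest difference of all (0 matches). They are given as the 250 bases before the RefSeq start of the gene on build GRCm38.p6. The first 4 belong to genes that were higher in VEGF Trap, and capitals mark ACGTG on either strand. Bnip3 lies at chr7:138909507-138909756 (minus strand), Pgk1 at chrX:106186850-106187099 (plus strand), Ldha at chr7:46845554-46845803 (plus strand) and Slc38a5 at chrX:8271131-8271380 (plus strand). Ldha has another start in the table, whose 250 bases (chr7:46846832-46847081) hold 0 matches. In a CACGTG run the core is read on both strands.
Bnip3: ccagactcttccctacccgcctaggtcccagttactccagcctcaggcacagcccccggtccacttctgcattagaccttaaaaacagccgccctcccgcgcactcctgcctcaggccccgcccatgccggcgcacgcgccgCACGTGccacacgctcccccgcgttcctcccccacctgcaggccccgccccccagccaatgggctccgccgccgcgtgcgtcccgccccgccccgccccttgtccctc
Pgk1: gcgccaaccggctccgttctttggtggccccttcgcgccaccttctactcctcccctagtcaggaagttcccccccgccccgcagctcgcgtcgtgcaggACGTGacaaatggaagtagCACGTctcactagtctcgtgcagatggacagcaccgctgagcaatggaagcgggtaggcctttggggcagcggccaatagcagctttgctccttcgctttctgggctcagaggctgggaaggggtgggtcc
Ldha: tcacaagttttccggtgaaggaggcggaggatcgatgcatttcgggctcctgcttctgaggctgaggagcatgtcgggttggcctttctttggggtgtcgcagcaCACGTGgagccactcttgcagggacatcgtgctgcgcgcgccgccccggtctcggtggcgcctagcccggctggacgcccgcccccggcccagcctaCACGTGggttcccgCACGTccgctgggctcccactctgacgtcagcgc
Slc38a5: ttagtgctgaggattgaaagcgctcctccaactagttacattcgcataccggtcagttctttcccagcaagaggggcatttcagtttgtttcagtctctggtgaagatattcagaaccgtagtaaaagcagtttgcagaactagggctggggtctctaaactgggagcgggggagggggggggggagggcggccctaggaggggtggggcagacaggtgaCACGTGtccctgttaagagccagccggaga
The other 2 belong to mitosis genes that were higher in VEGF-A, and capitals mark CCAAT and TTTGAA, the core of the cell cycle element CHR, on either strand. Ccnb2 lies at chr9:70421555-70421804 (minus strand), with 4 matches, and Cdk1 at chr10:69352913-69353162 (minus strand), with 5.
Ccnb2: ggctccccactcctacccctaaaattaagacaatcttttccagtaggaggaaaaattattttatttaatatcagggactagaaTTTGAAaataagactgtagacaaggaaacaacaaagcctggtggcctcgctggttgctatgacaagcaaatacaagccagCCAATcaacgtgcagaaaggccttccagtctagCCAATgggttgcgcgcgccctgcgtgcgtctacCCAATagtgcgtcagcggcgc
Cdk1: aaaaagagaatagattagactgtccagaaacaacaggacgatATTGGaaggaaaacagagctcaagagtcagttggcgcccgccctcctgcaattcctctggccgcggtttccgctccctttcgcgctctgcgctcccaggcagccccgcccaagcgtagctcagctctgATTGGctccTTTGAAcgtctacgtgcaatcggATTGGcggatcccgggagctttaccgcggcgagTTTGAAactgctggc
Over whole lists, ACGTG was in 18 of 32 promoters (56.2%) of the 23 hypoxia and glycolysis genes found in the promoter table, against 19.1% of all 18086 promoters of tested genes. CCAAT was in 16 of 18 promoters (88.9%) of 17 mitosis genes, against 34.7%, and TTTGAA in 8 of them (44.4%), against 12.7%. The E2F core GGCGGGAA was in 2 of 19 promoters of DNA replication genes (10.5%, against 2.71%). The CArG box was in 1 of 10 promoters of contractile genes, that of Myl9, and in 4 of 14 promoters of immediate early genes, all 4 of them overlapping starts of Egr2 (1.23% of all promoters). Both strands were searched, starts of the same gene can overlap, and a match is a description of the sequence only.

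Each array set its sample, in Cy3, against a reference pool of equal amounts of RNA from the whole experiment, in Cy5. A level is the log2 ratio of sample to pool, and a difference is the VEGF-A level minus the VEGF Trap level, so a difference of 1 is 2-fold. On the 8 arrays the median Cy3 signal was 713.9 to 909.6, 85.3 to 91.0% of spots were well above background, and no spot was saturated. Across all genes, arrays of the same group and slide correlated at 0.58 to 0.86, arrays of the same group on different slides at 0.38 to 0.72, and arrays of different groups at −0.33 to 0. The dyes are stated in the labels, so the direction was kept. The labels do not say which samples are separate animals, so p-values measure the spread between samples, which may be technical.

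Some genes split the arrays in ways the labels do not give. Xist, the RNA that silences an X chromosome in female cells, read 1.51, 1.70 and 1.12 on VEGF-A 1, VEGF-A 2 and VEGF Trap 3 and −5.63 to −4.58 on the other 5 arrays. The Y-linked genes Ddx3y, Kdm5d and Eif2s3y were the reverse, at −5.62 to −3.40 on those 3 arrays and 0.20 to 1.17 on the other 5. The labels give no sex. The high-Xist arrays were the VEGF-A arrays on slide 3 and the VEGF Trap array on slide 4, so this split and a difference between slides in the treatment effect cannot be told apart. VEGF-A 4 and VEGF Trap 3, whose title codes share a stem, were on opposite sides of the split. Lens genes made a second split, since their mean level was 0.12, 1.73 and 0.69 on VEGF-A 2, VEGF Trap 2 and VEGF Trap 3 and −3.05 to −2.03 on the other 5 arrays. All 8 measured lens genes were well above background on every array, and 0 of them passed the test. VEGF Trap 2 was also the highest array for the pigment cell genes Mlana (2.25, others −2.07 to −0.71), Tyrp1 (1.54) and Dct (1.43), of which 0 passed. Without VEGF-A 2 the number of genes that passed the test described next was 2574. Without VEGF Trap 2 it was 3944 and without VEGF Trap 3 it was 2796, against 3930 with all arrays. A fit equal to one with a term for the Xist split is given in the next paragraph. Beyond the values without these arrays, the part of the lens and pigment cell split was not tested.

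**Figure D1:**
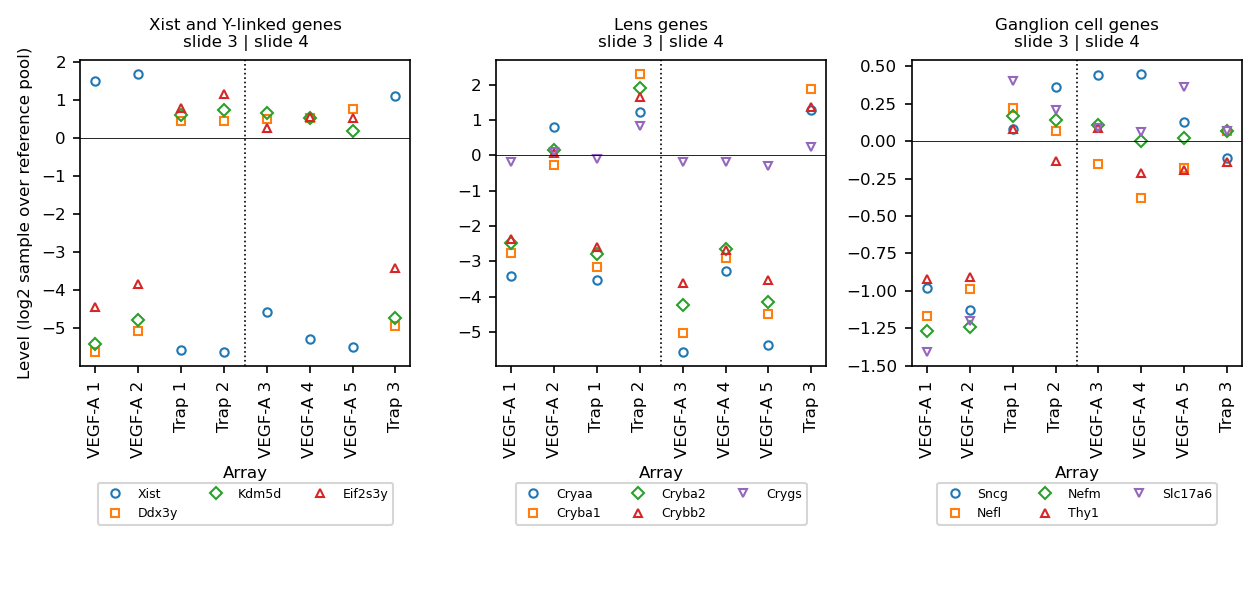
Levels (log2 sample over reference pool) of Xist and Y-linked genes, of 5 lens genes and of 5 ganglion cell genes on each of the 8 arrays, VEGF-A and VEGF Trap (Trap), with slide 3 left and slide 4 right of the dotted line. Xist was high on VEGF-A 1, VEGF-A 2 and VEGF Trap 3, and ganglion cell genes were low on VEGF-A 1 and 2.

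Of 23024 genes tested, 3930 (17.1%) passed an adjusted p of 0.05 (limma with slide as a block, Benjamini-Hochberg over all genes), 2219 (9.64%) higher in VEGF-A and 1711 (7.43%) higher in VEGF Trap. The large differences lay on the VEGF-A side, with 494 genes at least 2-fold higher in VEGF-A and 88 at least 2-fold higher in VEGF Trap. The median difference of all genes was −0.009 and the median SE 0.09. Every VEGF-A array lay on the same side of every VEGF Trap array for 5587 genes (24.3%), 3644 of which passed the test. All 3909 passing genes measured on both slides had the same sign on both. Passing a test on these same arrays makes this nearly certain in advance, so it is no separate check. Over 22906 genes the differences on slide 3 and slide 4 correlated at 0.66, as a description, since the slides share the reference pool and genes are not independent. With both slides weighted equally, an alternative added after the data were seen and the same fit as one with a term for the Xist split, 4889 genes passed, among them all 106 genes named by rule that passed before and could be fitted, in the same direction.

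The largest difference was that of Esm1, an endothelial proteoglycan made by sprouting tip cells. Its level was 2.21, 1.77, 2.01, 2.2 and 1.99 on VEGF-A 1 to 5 and −6.11, −6.04 and −5.16 on VEGF Trap 1 to 3. The difference was 7.71 ± 0.18 (SE, n = 5 and 3), or 209-fold, at an adjusted p of 6.04e-08, and the hFc arrays read −4.62 ± 0.75 (SD, n = 4). Kcne3, a potassium channel subunit of tip cells, read 1.68 to 1.87 on VEGF-A arrays and −4.70, −4.56 and −4.11 on VEGF Trap arrays, a 72.2-fold difference (6.17 ± 0.09, adjusted p = 6.82e-09). Plaur, the urokinase receptor, read 1.76 to 1.89 against −3.45, −3.41 and −3.17 (5.14 ± 0.08, 35.4-fold, adjusted p = 6.82e-09). For all 3 genes the gap between groups was many times the spread within them, the hFc arrays lay nearer VEGF Trap, and every other probe passed in the same direction, at 4.41 to 7.27, 5.6 to 5.64 and 3.53 to 4.83.

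Among the rest of the 15 largest were Calca, Ch25h, Acta2, Tubb6, Tagln, Dmp1, Edn2, Exoc3l2, Btnl9, Emcn and Ccl2, at 18.4-fold to 10.5-fold higher in VEGF-A. Calca encodes calcitonin and the vasodilator peptide CGRP, and which of these its probes read was not tested. Ch25h makes 25-hydroxycholesterol. Edn2 is an endothelin made by stressed photoreceptors, Emcn a sialomucin of capillary and venous endothelium, and Ccl2 a monocyte chemokine. Other probes were smaller for Calca (0.60) and Tubb6 (−0.15), and ran from 0.54 to 1.32 for Exoc3l2 and from 0.06 to 3.63 for Btnl9. The size rests on the brightest probe for these 4. Every size given here is that of the brightest probe, and other probes were smaller for several genes below as well.

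In the opposite direction Ndufa4l2, a mitochondrial protein that HIF induces and that pericytes express, led. It read −1.93, −1.83, −1.71, −1.78 and −1.69 on VEGF-A 1 to 5 and 0.85, 1.21 and 1.37 on VEGF Trap 1 to 3, a difference of −2.99 ± 0.10 (7.95-fold, adjusted p = 2.02e-07), with hFc at 0.06 ± 0.12. Slc38a5, an amino acid transporter of retinal endothelium, read −3.15 to −2.62 in VEGF-A and −0.30, −0.03 and −0.44 in VEGF Trap (−2.61 ± 0.14, 6.10-fold), and it had no hFc value. Slco1c1, a thyroid hormone transporter of brain and retinal capillaries, read −3.06 to −2.17 against 0.18, 0.21 and −0.28 (−2.45 ± 0.17, 5.45-fold), and hFc at 0.57 ± 0.02 was higher than both groups. Muc2, a mucin, differed by −2.93 on its brightest probe and by −0.13 on its other probe. The remaining genes of the 15 were Serpine3, Slc16a3 (the lactate exporter MCT4), Ak4, Gipr, Bnip3, H2-T-ps, Smtnl2, Hsd17b2, Cdh23, Vegfa and Adh1, at 5.52-fold to 3.54-fold higher in VEGF Trap. Other probes were smaller for Gipr (−1.11 and −0.71), Cdh23 (−1.93 and −0.10) and Adh1 (−0.65 and 0.08).

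**Figure D2:**
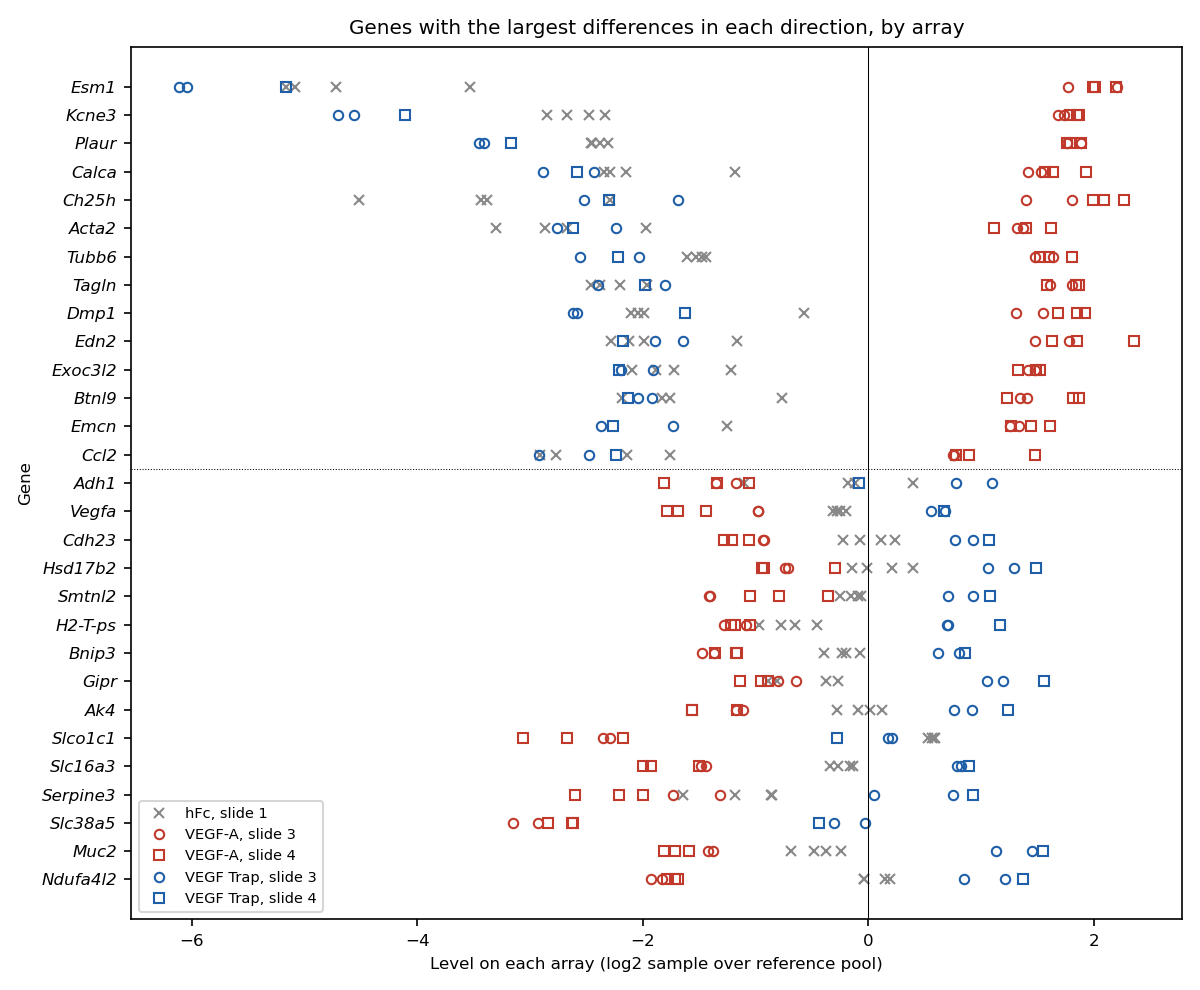
Level on each array (log2 sample over reference pool) of 14 and 15 of the genes with the largest differences towards VEGF-A and towards VEGF Trap, for VEGF-A (red) and VEGF Trap (blue) on slide 3 (circles) and slide 4 (squares) and for hFc on its own slide (grey crosses). By the rule that chose these genes, no VEGF-A array overlapped a VEGF Trap array. The hFc arrays lay near VEGF Trap for most genes in the upper block and between the groups for most genes in the lower block.

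Genes of the VEGF pathway moved in both directions. Among 10 ligands and receptors, 6 were higher in VEGF-A, 1 was higher in VEGF Trap and the median difference was 0.47. The 1 was Vegfa itself, read at −0.98, −0.98, −1.44, −1.69 and −1.78 in VEGF-A and 0.68, 0.56 and 0.67 in VEGF Trap, 3.73-fold apart (−1.90 ± 0.15, adjusted p = 3.46e-05), with hFc between them at −0.26 ± 0.05. The array measures the tissue's own transcript, since VEGF-A was given as protein. Of the receptors, Flt4 differed by 1.08 ± 0.06, the co-receptor Nrp1 by 1.03 ± 0.08, Flt1 by 0.72 ± 0.13 (other probes 0.12 to 2.60), Kdr by 0.50 ± 0.09 and the co-receptor Nrp2 by 0.45 ± 0.09. The VEGF relative Pgf, a ligand of Flt1, was 2.59-fold higher (1.37 ± 0.12). Vegfb, Vegfc and Vegfd did not pass, at −0.37, 0.21 and −0.66. Flt1 did not pass without VEGF Trap 3, and Kdr did not pass on slide 4 alone.

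Tip cell and sprouting genes had 11 of 14 members higher in VEGF-A and a median of 1.84. Besides the leading 3, Angpt2, a Tie2 antagonist released by endothelium, read 1.37 to 1.82 against −1.4, −1.43 and −1.17 (2.81 ± 0.08, 7.03-fold). Pdgfb, which recruits pericytes, read 0.87 to 1.3 against −1.50 and −1.59, with no value on VEGF Trap 3 (2.74 ± 0.14). Dll4, the Notch ligand of tip cells, read 1.11 to 1.3 against −1.60, −1.49 and −1.41 (2.69 ± 0.06, 6.46-fold), with other probes at 0.89 and 1.71. Apln, a ligand of the venous receptor Aplnr, differed by 1.80 ± 0.09. Adm, adrenomedullin, ran the other way, at −1.09, −0.96, 0.18, −0.91 and −1.07 in VEGF-A and 0.16, 0.41 and 0.76 in VEGF Trap (−1.33 ± 0.26, adjusted p = 0.00841), so VEGF-A 3 overlapped VEGF Trap 1. Cxcr4 (0.18) and Rgs5 (0.30) did not pass.

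Of 20 pan-endothelial genes 17 were higher in VEGF-A, with a median of 1.59, and 0 were higher in VEGF Trap. They included Cd34 (1.03 to 1.46 against −1.81, −1.72 and −1.88, 8.02-fold), Icam2 (5.55-fold), Mmrn2 (5.51-fold), the junction protein Pecam1 (4.05-fold) and VE-cadherin, Cdh5 (3.13-fold). The receptor Tek differed by 1.34-fold, and Sox17 (0.24), Clec14a (−0.14) and Ptprb (−0.16) did not pass. Plvap, which forms the diaphragms of leaky capillaries, was 3.86-fold higher (0.87 to 1.23 against −1.17, −0.58 and −1.01). In RNA of whole retinas, fewer cells of a type and less RNA per cell cannot be told apart. For 15 of the 16 passing members with an hFc value, the hFc mean lay between the group means, and for 14 it was nearer VEGF Trap. Over all passing genes higher in VEGF-A with an hFc value, it lay between for 79.9% and nearer VEGF Trap for 63.6%.

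Endothelial transporters and barrier genes did not follow the other endothelial genes. Of 14 measured barrier genes, 3 were higher in VEGF-A and 6 were higher in VEGF Trap, with a median of −0.14. Slco1c1, Slco1a4 (−1.06 ± 0.19), the glucose transporter Slc2a1 (−0.99 ± 0.15), the lactate transporter Slc16a1 (−0.86 ± 0.17), the tight junction protein Ocln (−0.80 ± 0.19) and Apcdd1, a modulator of Wnt signalling (−0.56 ± 0.15), made up the 6. Lef1, a Wnt effector, was higher in VEGF-A (1.02 ± 0.11), as were Abcg2 (0.81 ± 0.08) and Slc7a5 (0.32 ± 0.09, adjusted p = 0.0492). Cldn5, the main claudin of the barrier (0.22 ± 0.07), and the lipid transporter Mfsd2a (0.30 ± 0.18) did not pass.

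Arterial genes had 7 of 11 members higher in VEGF-A (median 0.54), among them Sema3g (3.15-fold), Cxcl12 (2.36-fold, with no value on VEGF Trap 3) and the connexin Gja4 (1.45-fold), while the ephrin Efnb2 (0.18) did not pass. Of 6 venous genes 3 were higher, Flt4, Nrp2 and Ephb4 (0.42 ± 0.12), and 2 were lower, Slc38a5 and Aplnr (−0.81 ± 0.10), with a median of 0.09. Aplnr was −0.22 on its other probe. In the angiopoietin group Angpt2, Tie1 (1.12 ± 0.10) and Tek (0.42 ± 0.07) were higher in VEGF-A and Angpt4 was lower (−1.67 ± 0.15), although its other probes read 0.06 and 0.14. Angpt1 did not pass (−0.14). The median of these 5 genes was 0.42, and −0.26 in the series' deposited value table.

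Notch signalling restrains sprouting downstream of Dll4. Among 9 receptors and ligands Dll4, Notch4 and Notch1 were higher in VEGF-A and 0 were lower (median 0.23, 0.06 without VEGF Trap 1 and 0.35 without VEGF Trap 2). Notch4, the endothelial receptor, read 0.83 to 1.1 on 4 VEGF-A arrays, with no value on VEGF-A 5, against −1.08, −0.95 and −1.19 (2.06 ± 0.10, 4.16-fold), and Notch1 differed by 0.72 ± 0.11. Of 10 effectors, 4 were higher (median 0.37), namely Heyl (1.22 ± 0.15), the fringe Lfng (1.11 ± 0.17), the feedback inhibitor Nrarp (0.83 ± 0.13) and Hes1 (0.71 ± 0.10). Notch1, Nrarp and Hes1 did not pass on slide 4 alone. Hey1 did not pass (0.04 ± 0.07, adjusted p = 0.79), with VEGF-A arrays at 0.01 to 0.30 and VEGF Trap arrays at 0.03 to 0.11, its sign changed under other settings, and neither did Hes5 (0.41) or Hey2 (0.22).

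Growth factor receptors act through the kinase ERK, which induces its own feedback inhibitors and immediate early genes. Of 10 measured ERK feedback genes 6 were higher and 1 lower (median 0.44), led by the transcription factor Etv4 (2.01 ± 0.09, 4.03-fold) and the phosphatase Dusp6 (1.64 ± 0.13). Dusp4 was the 1 lower (−0.43 ± 0.11). Of 15 immediate early genes 11 were higher (median 0.85), and Egr2 read 1.36, 1.73, 1.66, 1.21 and 1.54 against −1.71, −1.77 and −1.35 (3.08 ± 0.15, 8.48-fold). Egr1 was 5.11-fold, Myc 3.17-fold and Fos 2.36-fold higher, whereas Egr3 differed by 0.04 ± 0.07 and did not pass. Of 14 genes known to answer VEGF within hours, 7 were higher at this time (median 0.40), with Adamts1 (5.53-fold) and Hlx (5.23-fold) in front, and Rcan1 (0.08) and Ptgs2 (0.01) did not pass.

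Cell division genes were higher in VEGF-A. Of 20 measured mitosis genes 19 were higher and 0 lower, with a median of 1.90. Ube2c, a ubiquitin carrier of mitotic exit, read 1.51, 1.38, 1.70, 1.54 and 1.29 against −1.93, −1.51 and −1.58 (3.13 ± 0.12, 8.75-fold, adjusted p = 5.8e-07). Ccnb1 was 6.15-fold, Mki67 6.06-fold, Cdk1 4.63-fold and Ccnb2 3.18-fold higher, the last 2 being the genes whose promoters are printed above. The other probe of Cdk1 differed by 0.40. Bub1b was the exception, at −0.07 to 0.57 against 0.60, 0.12 and −0.32 (0.01 ± 0.22). The hFc mean lay nearer VEGF Trap for all 19 passing members and between the groups for 17, beside 63.6% and 79.9% of all passing genes higher in VEGF-A. Of 22 DNA replication genes 18 were higher (median 0.88), such as Mcm3 (3.95-fold), Rrm2 (3.68-fold) and Tyms (3.65-fold, other probes −0.07 to 1.84). Rrm1 (0.33 ± 0.10, adjusted p = 0.0512) was just short.

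Hypoxia and glycolysis genes were higher in VEGF Trap. Of 25 members 23 were higher in VEGF Trap and 0 in VEGF-A, with a median of −0.99, where 7.43% of all genes passed in that direction. Bnip3, a HIF target in mitophagy, read −1.37, −1.47, −1.17, −1.36 and −1.16 in VEGF-A and 0.81, 0.62 and 0.86 in VEGF Trap (−2.12 ± 0.08, 4.34-fold, adjusted p = 4.52e-07). Pfkp, a phosphofructokinase, read −0.93 to −0.62 against 0.78, 0.71 and 0.98 (2.98-fold), and Pdk1, which keeps pyruvate out of mitochondria, read −1.11 to −0.63 against 0.67, 0.72 and 0.85 (2.87-fold). The glycolytic enzymes Hk2 (2.4-fold), Tpi1 (2.27-fold), Pfkl (2.07-fold), Aldoa (2.03-fold), Eno1 (1.94-fold), Pgk1 (1.88-fold) and Ldha (1.56-fold) were higher in VEGF Trap as well, as were the oxygen sensors Egln3 (2.12-fold) and Egln1 (2.02-fold). Vegfa, Adm and Slc2a1 are members of this list too. Car9 (−0.12 ± 0.09) and Ndrg1 (−0.06 ± 0.18, no value on VEGF Trap 1) did not pass. The mean level of the list was −0.82 to −0.54 on the VEGF-A arrays and 0.25 to 0.35 on the VEGF Trap arrays, without overlap. For 22 of the 23 passing members the hFc mean lay between the groups, and for 19 of the 23 it was nearer VEGF-A, while over all passing genes higher in VEGF Trap with an hFc value it lay between for 70.1% and nearer VEGF Trap for 48.9%.

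**Figure D3:**
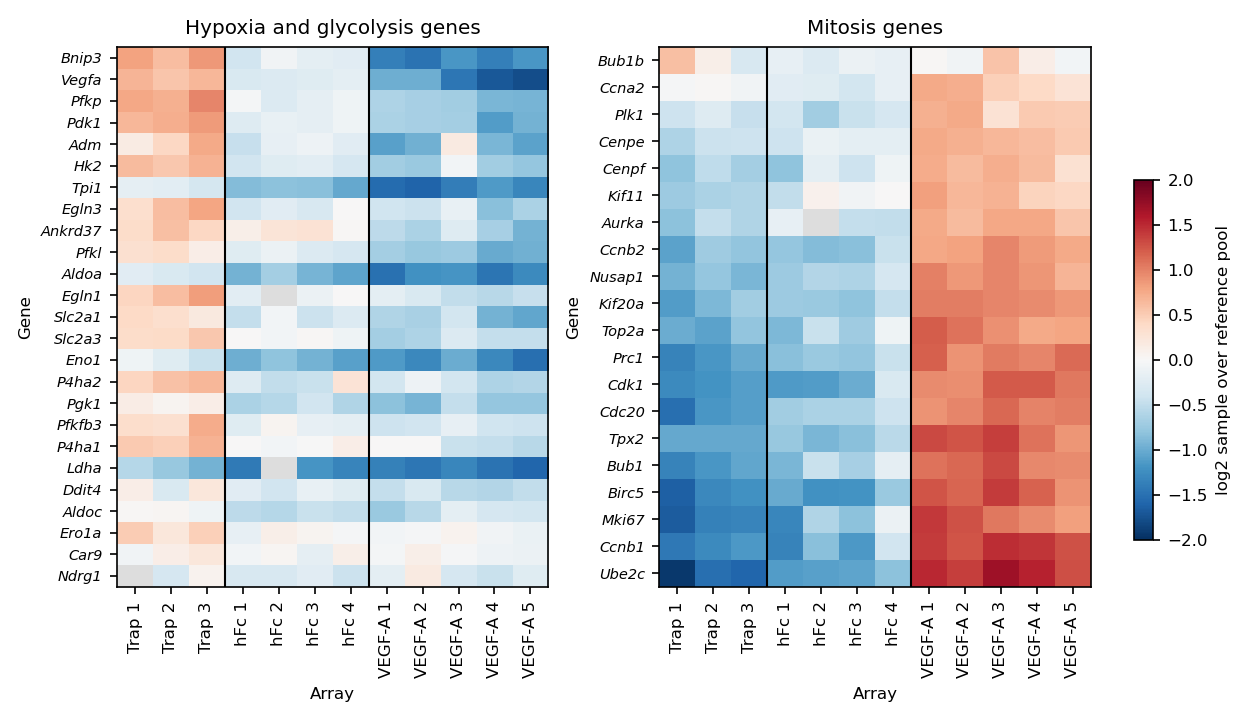
Levels (colour, log2 sample over reference pool, from −2 to 2) of the 25 hypoxia and glycolysis genes and the 20 measured mitosis genes on the VEGF Trap (Trap), hFc and VEGF-A arrays, with grey for no value. Hypoxia genes were highest in VEGF Trap and mitosis genes in VEGF-A, and hFc, on another slide, lay between for 22 of 23 and 17 of 19 passing members.

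Contractile genes of mural cells were higher in VEGF-A. Of 12 contractile smooth muscle genes 11 were higher, with a median of 2.03. Acta2, smooth muscle actin, read 1.32, 1.37, 1.12, 1.4 and 1.62 against −2.76, −2.24 and −2.62 (3.91 ± 0.15, 15.1-fold, other probes 0.91 to 3.53), Tagln was 13.8-fold and Tpm2 6.39-fold higher, and hFc was nearer VEGF Trap for all 11, against 63.6% of all passing genes higher in VEGF-A with an hFc value. Myh11, the smooth muscle myosin, did not pass (−0.26 ± 0.44). It read −0.38, 1.84 and −0.26 on VEGF Trap 1 to 3, −0.14 to 0.26 on the VEGF-A arrays and −0.46 as the hFc mean. VEGF Trap 1 and 3 thus lay below every VEGF-A array and VEGF Trap 2 above them. Of 12 pericyte genes 3 were higher, Mcam (2.95 ± 0.08), Cspg4 (2.13 ± 0.09, other probes 0.19 and 2.03) and Pdgfrb (0.41 ± 0.10). As many, 3, were lower, Ndufa4l2, the potassium channel Kcnj8 (−1.37 ± 0.21) and Anpep (−0.80 ± 0.13), and the list median was −0.14. Cspg4 and Mcam are also made outside pericytes, and Rgs5, Abcc9 and Higd1b did not pass, at 0.30, −0.13 and −0.19.

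Matrix genes were mostly higher in VEGF-A. Of 14 measured basement membrane genes 10 were higher (median 1.38), led by the laminin chain Lama4 (6.81-fold, other probes 0.01 to 2.68), the nidogen Nid1 (5.86-fold), Col15a1 (5.84-fold, other probe 0.04) and Col4a1 (5.34-fold). Lama5 (0.31), Lamb2 (−0.20), Col8a1 (0.21) and Col18a1 (0.00 ± 0.38) did not pass. Of 13 genes of pericellular proteolysis 9 were higher (median 1.18), which besides Plaur took in urokinase, Plau (8.32-fold), the protease inhibitor Timp1 (4.64-fold) and tissue plasminogen activator, Plat (3.56-fold). Other probes ran from 0.08 to 1.69 for Plau, from 0.19 to 1.66 for Timp1 and from 0.14 to 1.70 for Plat. The gelatinases Mmp2 (−0.08) and Mmp9 (−0.29) did not pass.

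Genes of vessel tone went both ways, with 6 of 21 higher in VEGF-A, 4 lower and a median of −0.03. The constrictors Edn2 (13.1-fold) and Edn1 (1.22, 0.98, 1.38, 1.27 and 1.33 against −1.1, −0.96 and −0.96, 4.58-fold) were higher. So were Calca, whose products include the dilator CGRP (other probe 0.60), and endothelial nitric oxide synthase, Nos3 (2.4-fold). The receptors split, since Ednrb (0.65 ± 0.08) and the receptor partner Ramp2 (0.96 ± 0.09) were higher and Ednra (−1.21 ± 0.11) and Calcrl (−0.92 ± 0.15) lower. Other probes ran from −0.54 to −0.12 for Ednra and from −0.70 to 0.10 for Calcrl. Nos1 was lower too (−0.46 ± 0.13), beside Adm. Angiotensinogen, Agt, did not pass (−0.09 ± 0.11, adjusted p = 0.64), with 0.02 to 0.41 in VEGF-A and 0.25 to 0.35 in VEGF Trap.

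Glial genes moved in both directions, where 9.64% of all genes passed as higher in VEGF-A and 7.43% as lower. Of 15 measured gliosis genes 11 were higher (median 0.98), and Lcn2 (−0.13) and Serpina3n (−0.22) did not pass. The 11 included the intermediate filaments Nes (1.32 to 1.59 against −1.46, −1.52 and −1.16, 6.77-fold), Gfap (5.40-fold) and Vim (3.05-fold). Nes and Vim are also made outside glia, and RNA of whole retinas does not show which cells made them. Of 14 Müller glia genes 3 (21.4%) were higher, Slc14a1 (1.38 ± 0.11), the glutamate transporter Slc1a3 (0.75 ± 0.06) and Car2 (0.43 ± 0.10). A further 2 (14.3%) were lower, and the median was −0.04. The 2 were the water channel Aqp4 (−1.45, −1.28, −0.68, −1.32 and −1.47 against 0.53, 1.15 and −0.08, 3.3-fold) and glutamine synthetase, Glul (−1.19 to −0.49 against 0.82, 0.86 and 0.36, 3.21-fold). Rlbp1, a retinoid-binding protein of these cells, differed by 0.00 ± 0.08. Among 7 astrocyte genes Igsf1 alone passed, as lower (−0.54 ± 0.12, list median −0.13). That is 14.3%, beside 17.1% of all genes passing in either direction. Igsf1 did not pass without VEGF-A 2 or as a mean over probes. It differed by −0.73 on slide 3 and −0.29 on slide 4.

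Immune and blood cell genes had passing members in both directions, where 9.64% of all genes passed as higher in VEGF-A and 7.43% as lower. Of 12 measured inflammation genes 4 were higher in VEGF-A, Ccl2 (10.5-fold), Ccl7 (1.54-fold), Il6 (1.43-fold) and Icam1 (1.4-fold), and the T cell chemokine Ccl5 was lower (−1.48 ± 0.20), with a median of 0.26. Of 16 measured interferon genes 1 (6.25%) was higher, Rsad2 (0.83 ± 0.14), and 4 (25%) were lower, led by Ifi27l2a (−1.08 ± 0.27) and Mx2 (−0.93 ± 0.14), with a median of −0.03. Ifi27l2a did not pass without VEGF-A 1, 2 or 4 or VEGF Trap 2 or 3. Rsad2, Mx2 and Ccl7 did not pass in a fit of all 16 arrays. Of 15 microglia and macrophage genes 0 were higher and 3 lower, Fcer1g (−0.47 ± 0.07), Itgam (−0.46 ± 0.12) and Csf1r (−0.46 ± 0.11), with a median of −0.11. Itgam did not pass without VEGF-A 1, 2 or 4 or VEGF Trap 1 or 3, and Csf1r did not pass without VEGF Trap 1 or 3, on slide 3 alone or under 3 other settings of signal and probes. Among 9 neutrophil genes S100a9 was higher (1.13 ± 0.13) and Csf3r lower (−0.45 ± 0.10), with a median of 0.11. That is 11.1% in each direction, near the shares of all genes. Csf3r did not pass without VEGF Trap 3 or on slide 3 alone. Of 8 measured erythroid genes 4 were higher, with the haemoglobin chain Hba-a1 at 0.26, 0.08, −0.45, 0.95 and 0.23 against −1.76, −1.70 and −2.53 (4.85-fold) and the haem enzyme Alas2 at 4.52-fold. Their median was 0.23, and the mean level of the list was 0.08 to 0.54 on VEGF-A arrays and −0.55 to −0.38 on VEGF Trap arrays. Of 14 sterol genes 4 were higher (median 0.17), and apart from Ch25h (16.1-fold) these differed little, such as Cyp51 (1.24-fold) and Dhcr7 (1.24-fold). Cyp51 did not pass without VEGF-A 1, 2 or 4 or VEGF Trap 1 or 3. Nor did it pass on slide 3 alone, with the scanner's log10 ratio, with the deposited value table or with Cy3 alone. Calls lost on slide 4 alone, where VEGF Trap has 1 array, are named in the text for only some genes. Cyp51, Itgam, Csf3r and Ifi27l2a were lost there too.

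Photoreceptor genes did not pass in either direction, where 9.64% of all genes passed as higher in VEGF-A and 7.43% as lower. Of 9 measured rod genes and 8 measured cone genes, 0 passed (limma), with medians of −0.15 and −0.05. Of 10 bipolar cell genes Pcp2 alone passed (0.42 ± 0.10; median −0.11), and it did not pass on either slide alone, without VEGF-A 2 or 4 or VEGF Trap 1 or 3, with the scanner's log10 ratio or with Cy3 alone. That is 10% of the bipolar cell genes, near the share of all genes. Of 14 amacrine and horizontal cell genes 6 (42.9%) were lower in VEGF-A and 0 higher (median −0.32). Among the 6 were the GABA enzyme Gad1 (−0.57 ± 0.11), the GABA transporter Slc32a1 (−0.54 ± 0.09, no value on VEGF Trap 3) and Pax6 (−0.42 ± 0.08). The list median was −0.37 on slide 3, −0.08 on slide 4 and −0.20 without VEGF Trap 2, and the mean level was −0.31 and −0.27 on VEGF-A 1 and 2, −0.12 to −0.10 on VEGF-A 3 to 5 and 0.00 to 0.13 on the VEGF Trap arrays. Pax6 did not pass without VEGF Trap 3, nor Slc32a1 without the slide term. Of 8 measured pigment epithelium genes 0 passed (median −0.29). The lens genes had a median of −1.57, −0.70 on slide 3 and −3.18 on slide 4.

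Ganglion cell genes had different medians on the slides. Of 12 members 4 (33.3%) passed as lower in VEGF-A, beside 7.43% of all genes. They were Nefl (−0.83 ± 0.18), Nefm (−0.82 ± 0.24), Pou4f2 (−0.76 ± 0.18) and Pou4f3 (−0.65 ± 0.16). The list median was −0.51, made of −0.86 on slide 3 and 0.03 on slide 4. Nefm, a neurofilament, read −1.27 and −1.24 on VEGF-A 1 and 2 and 0.00 to 0.17 on the other 6 arrays of both groups. Slc17a6, the glutamate transporter of these cells, read −1.41 and −1.20 on VEGF-A 1 and 2 and 0.06 to 0.40 on the others. The low values of both genes were those of the VEGF-A arrays on slide 3, and Slc17a6 did not pass over both slides (adjusted p = 0.0821). Without the slide term, Nefl, Pou4f2 and Pou4f3 no longer passed. Pou4f2 also lost its call without VEGF-A 1 or 2 or VEGF Trap 1 or 3, and Pou4f3 without VEGF-A 1, 2 or 4 or VEGF Trap 1 or 2.

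The test of whether the difference itself changed between slides called 25 of 22906 genes (0.109%), with 2990 at an unadjusted p under 0.05. Xist, Tsix, Ddx3y, Kdm5d and Eif2s3y were 5 of the 25 and differed in opposite directions on the slides, Xist by 7.21 on slide 3 and −6.24 on slide 4. For 12 of the other 20, VEGF-A 1 and 2 both lay below every other array, and these included Nefm, Slc17a6 and Sncg of the ganglion cell list, the synaptic protein Cplx1, the calcium sensor Vsnl1 and Pnoc. Marveld2, a tight junction protein, followed the Xist split instead, at −0.81, −0.56 and −0.88 on the 3 high-Xist arrays and 0.09 to 0.53 on the others. So, among others, did the X-linked gene Eif2s3x, at 0.54, 0.52 and 0.36 against −0.30 to 0.09. Ern2 did as well, at 0.81, 0.56 and 0.52 against −0.26 to −0.03. None of the 109 genes named by rule was among the 25. The number rests on few arrays, since it was 188 without VEGF-A 3 and 6 without VEGF-A 4, and it cannot be told apart from the Xist split.

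**Figure D4:**
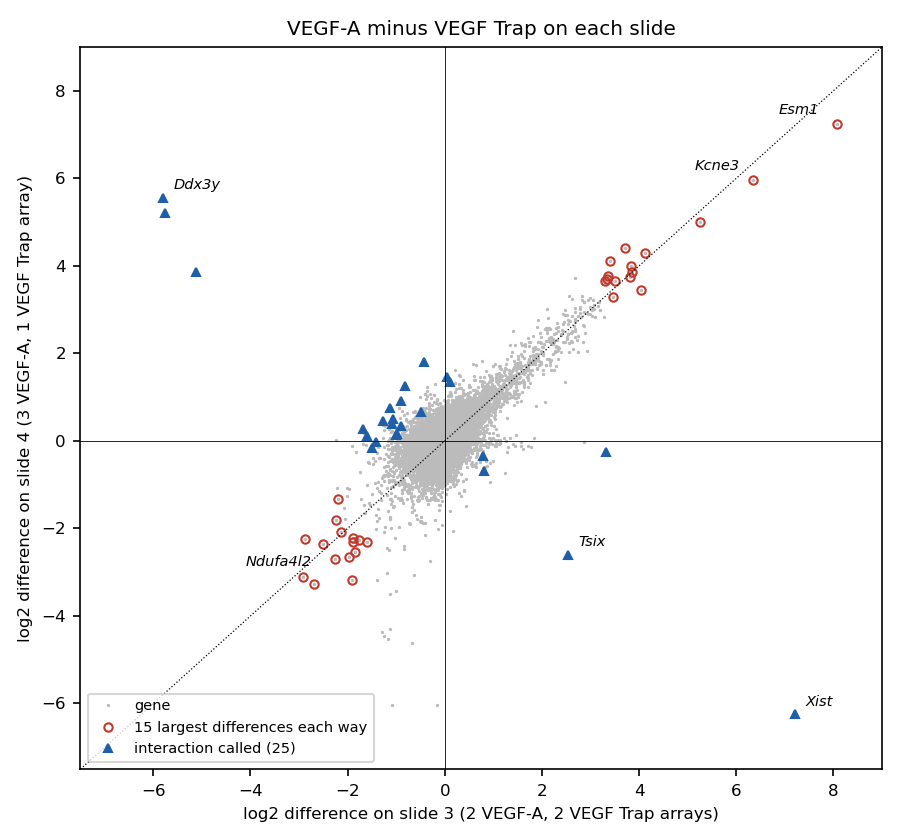
Difference between VEGF-A and VEGF Trap (log2) on slide 3 against that on slide 4, 1 point per gene, with the 15 largest differences each way as red circles, the 25 genes called for interaction as blue triangles and the line of equality dotted. The largest differences, chosen among genes with the same sign on both slides, lie near the line. Xist, Tsix and the Y-linked genes lie in the opposite corners.

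**Figure D5:**
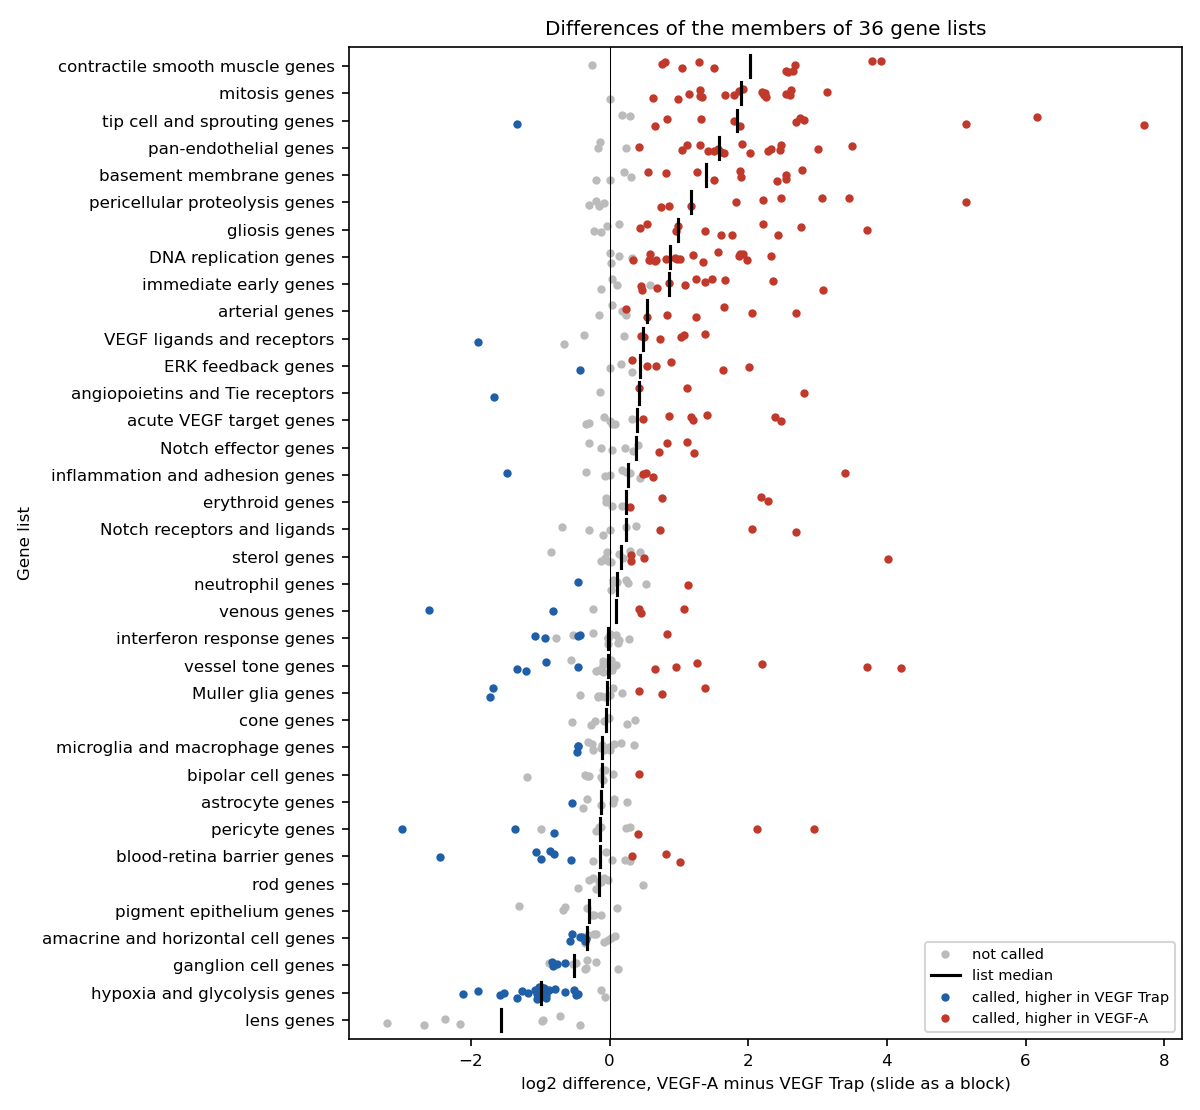
Differences (log2, VEGF-A minus VEGF Trap) of the measured members of the 36 gene lists, ordered by list median (black bar), with passing members in red (higher in VEGF-A) or blue (higher in VEGF Trap) and the others in grey. Contractile and mitosis genes have the highest medians, 2.03 and 1.90. Lens genes, of which 0 passed, and hypoxia and glycolysis genes have the lowest, −1.57 and −0.99. Of all genes, 9.64% passed as higher in VEGF-A and 7.43% as higher in VEGF Trap.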

How the data were processed

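Per the labels and the file headers, retinal RNA was amplified, labelled and hybridised to 2-colour Agilent mouse arrays, and the authors' scanner files hold spot intensity values from Agilent Feature Extraction 9.5.1.1. The deposited files also give flags and a log10 ratio of Cy5 over Cy3, and the deposited value table held natural log ratios of sample over reference, as found by setting it against the scanner files. Neither labels nor headers name a genome build for the probes. Mean signals were corrected with normexp (offset 50) and loess in limma 3.58.1 (R 4.3.3), control spots at weight 0 and outlier spots left out (18 to 213 an array, against 2350 to 2599 on the hFc arrays). A probe was kept where its Cy3 spot exceeded background clearly, by the scanner's flag, on 3 or more of the 8 arrays (39262 of 43426), with the brightest probe for each gene, and 18337 of 23024 genes had a RefSeq symbol. The fit had treatment and slide as terms, tested 2-sided, and the number of arrays limits the precision.

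The genes named by rule began with the 15 largest differences in each direction among passing genes without overlap between groups and with the same sign on both slides. Added were up to 3 passing members of each of 36 lists, those with the smallest p, with or without overlap, and 15 genes of the study's subject. A few genes that the rule or lists hold are not reported here. Other members were named after their values were seen. Members, lists and tests were chosen with earlier results of these data known. Alternatives changed the slide term, slides, background correction, source column, channel, filter, outlier spots, probe rule and each array in turn. The scripts were tested on simulated data. Figures used matplotlib 3.10.9.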

Additional observations from a re-analysis of the deposited data

Results flagged for a closer look

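In 5 of 107 named genes, 1 VEGF-A array stood apart from the other 4 by Dixon's test (critical value 0.71), and chance flags about 1 in 20 groups. VEGF-A 3 was highest for Adm, at 0.18 against −0.91 for the next array, and for Glul, at −0.49 against −1.01. VEGF-A 5 was highest for Ccl2, at 1.48 against 0.89, and lowest for Mx2, at −1.76 against −1.38. VEGF-A 4 was highest for Sema3g, at 1.19 against 0.78. All are levels as log2 sample over reference pool, and groups of 3 were not tested.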

How the results depend on the processing

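Of 107 passing named genes, 80 passed in the same direction under all 22 alternatives that could be fitted for them, and 90 when slide 4 alone was left out of these. The number of passing genes was 3930, and 1644 on slide 4 alone (1135 higher in VEGF-A and 509 higher in VEGF Trap), where 1 VEGF Trap array is assumed to vary like the others. Leaving out 1 array at a time gave 2574 (without VEGF-A 2) to 4549 (without VEGF-A 3) genes in all, 1498 to 2426 higher in VEGF-A, and 950 to 2187 higher in VEGF Trap. The last number was 994 without VEGF-A 1, 950 without VEGF-A 2 and 1136 without VEGF Trap 1. The interaction called 25 genes, 9 with the scanner's log10 ratio, 13 with the deposited value table, 13 with Cy3 alone and 9 with both channels above background. Leaving out 1 array gave 6 (VEGF-A 4) to 188 (VEGF-A 3), and without VEGF Trap 3 it could not be fitted. Hey1, which did not pass, went from 0.04 to −0.03 on slide 3 alone, −0.02 with Cy3 alone, −0.02 as a mean over probes and −0.03 without VEGF Trap 3, and leaving out 1 array at a time gave −0.03 to 0.07. List medians that changed sign were those of the angiopoietin group (−0.26 with the deposited value table), of venous (−0.01), pericyte (0.01), Müller glia (0.06), cone (0.08), ganglion cell (0.03) and pigment epithelium genes (0.09) on slide 4 alone, of vessel tone genes (0.04 without VEGF Trap 2), of astrocyte genes (0.04 as a mean over probes) and of bipolar cell genes (0.05 on slide 3 alone and without VEGF Trap 3). With the scanner's log10 ratio the median of neutrophil genes was 0.66 and of erythroid genes 0.92. The causes were not tested. No paired analysis was possible because replicate numbers follow the order of deposit. With 3 VEGF Trap arrays, 1 of them on slide 4, the number of arrays limits every estimate.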
